A study of Homo sapiens with 9 samples.

Results

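The genes described here encode proteins that luminal cells of the human prostate secrete. They are the kallikreins KLK2, KLK3 and KLK11, the prostatic acid phosphatase ACP3 (ACPP in older annotation), the microseminoprotein MSMB and the zinc-binding glycoprotein AZGP1. Their members were taken as every probe set, a group of probes summarised to 1 value, that the array annotation gives to exactly 1 of these 6 genes. This gave 10 of 22215 probe sets, and 6 of the 12165 genes that have such a probe set: 3 probe sets for KLK2, 2 each for KLK3 and MSMB, and 1 each for KLK11, ACP3 and AZGP1. The choice did not use measured values of a comparison, but it was made with earlier results of these data known.

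LNCaP is an established line from a lymph node metastasis of a human prostate cancer that grows in response to androgen. All groups were first starved of androgen for 2 days, in serum from which charcoal had removed the steroids. The groups were then 1 nM R1881 (a synthetic androgen) with 1.25 µM celastrol (a plant triterpenoid), 1 nM R1881 with the solvent DMSO, and the solvents ethanol and DMSO alone, here called androgen plus celastrol, androgen, and vehicle. Each had 3 arrays labelled as biological replicates. Treatment lasted 24 h by the protocols of all 9 arrays, but the titles of the 3 androgen arrays say 6 h, so a difference in time between these arrays and the others cannot be told apart from the treatment. No group had celastrol without androgen. All are cultures of 1 cell line, and the p-values measure the spread between these arrays.

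Kallikreins are secreted serine proteases. KLK3, prostate-specific antigen, cleaves the semenogelins of the seminal clot and so liquefies semen, and KLK2 is a trypsin-like relative that can activate the KLK3 precursor. Androgen binds a nuclear receptor that binds DNA elements near its target genes, and KLK3 is the textbook target in prostate cells. Acid phosphatase removes phosphate groups and was a serum marker of prostate cancer before prostate-specific antigen.

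The promoters of the 4 genes that changed are shown because KLK2 and KLK3 lie next to each other and have closely related upstream sequence. The other members with a promoter entry do not share that sequence. In the RefSeq annotation of GRCh38.p14, the order along chromosome 19 is KLK1, KLK15, KLK3, KLK2 and, further on, KLK11, with a long non-coding RNA between KLK15 and KLK3. Of the 6 members, 5 matched the RefSeq promoter table, KLK11 with 2 entries. MSMB had no entry, so its promoter was not searched or aligned. Each line gives the 250 bases before the gene start, on the strand of the gene, and capitals mark matches to the element or the hexamer described after them. The windows are chr19:50873189-50873438 (plus strand) for KLK2, chr19:50854665-50854914 (plus strand) for KLK3, chr3:132317157-132317406 (plus strand) for ACP3 and chr7:99976032-99976281 (minus strand) for AZGP1.
KLK2: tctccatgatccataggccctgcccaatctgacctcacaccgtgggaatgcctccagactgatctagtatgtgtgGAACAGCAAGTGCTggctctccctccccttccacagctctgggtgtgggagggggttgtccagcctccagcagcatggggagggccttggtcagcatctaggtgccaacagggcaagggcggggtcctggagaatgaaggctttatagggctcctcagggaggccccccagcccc
KLK3: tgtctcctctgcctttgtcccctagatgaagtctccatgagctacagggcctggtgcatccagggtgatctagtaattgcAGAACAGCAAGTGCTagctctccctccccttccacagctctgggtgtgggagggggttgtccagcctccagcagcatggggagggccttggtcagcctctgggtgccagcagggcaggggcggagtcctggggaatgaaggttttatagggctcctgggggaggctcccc
ACP3: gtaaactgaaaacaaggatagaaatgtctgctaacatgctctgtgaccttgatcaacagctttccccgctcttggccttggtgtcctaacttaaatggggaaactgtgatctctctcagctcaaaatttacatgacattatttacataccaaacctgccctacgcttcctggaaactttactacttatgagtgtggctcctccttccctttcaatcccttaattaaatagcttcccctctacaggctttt
AZGP1: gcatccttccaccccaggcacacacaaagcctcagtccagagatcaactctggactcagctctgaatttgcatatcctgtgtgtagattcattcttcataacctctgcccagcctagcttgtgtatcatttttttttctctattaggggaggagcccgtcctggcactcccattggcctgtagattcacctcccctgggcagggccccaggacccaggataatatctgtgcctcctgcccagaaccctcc

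The letters GAACA and AGTGCT with any 3 bases between them, known from the KLK3 promoter as an androgen response element, were found 169 to 156 bases before the KLK3 start and 175 to 162 bases before the KLK2 start. With both strands of the 250 bases before each gene start searched, 14 of 35116 promoters held them (0.0399%). Among the members these were KLK2 and KLK3 alone, with MSMB not searched. The hexamer AGAACA, searched on both strands, was in 12.4% of promoters and among the members searched only in KLK3, where it overlaps the element. The palindromic element (AGAACA and TGTTCT with any 3 bases between them) was in 1 promoter (0.00285%) and in no member searched. In a global alignment, 196 of 219 aligned bases of the KLK2 and KLK3 promoters were identical (89.5%), against 51.1% to 66.9% in the 14 other pairs of member promoters. Binding of any factor was not measured.

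**Figure D1:**
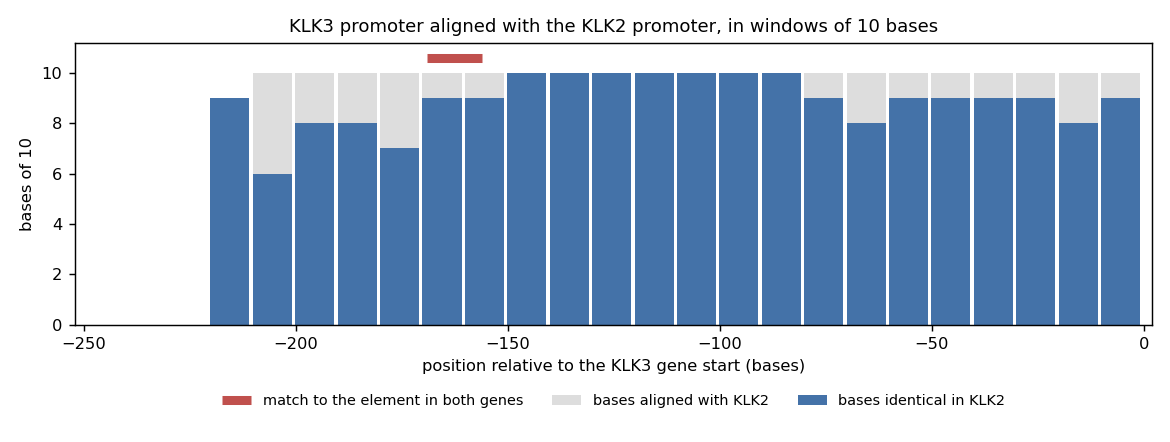
Bases of the KLK3 promoter that align with KLK2 (grey) and are identical in KLK2 (blue), in windows of 10 bases, against the position before the KLK3 start. All 10 bases were aligned in 21 of 25 windows and identical in 7, and the red bar marks the element found in both genes.

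Values are log2 of the deposited intensities, and a difference is called where its Benjamini-Hochberg adjusted p over all 22215 probe sets is below 0.05 in a limma fit of the 9 arrays. The vehicle replicate 3 array stood apart: the SD of its deviations from the group means was 0.312, against at most 0.209 on the other arrays, and its upper quartile of intensity was 332, against 377 to 409. Of 5 measured luminal prostate markers, all lay at or above the 91.8th percentile of probe set means, while 4 basal, 6 stromal, 5 leukocyte and 5 neuroendocrine markers lay at or below the 63.4th. Summed intensity of the luminal markers was 29018 to 30504 with androgen plus celastrol, 31469 to 33020 with androgen and 27330 to 28444 with vehicle. The stromal sum was 275 to 356 with androgen plus celastrol, 358 to 393 with androgen and 487 to 521 with vehicle, and the neuroendocrine sum 330 to 384, 237 to 257 and 314 to 454 with androgen plus celastrol, androgen and vehicle. Basal sums were 125 to 132 with androgen plus celastrol, 136 to 163 with androgen and 133 to 196 with vehicle, and leukocyte sums 212 to 238, 194 to 209 and 202 to 228 with androgen plus celastrol, androgen and vehicle. The part of these shifts in the results was not tested. VIM, the brightest stromal marker, had log2 means of 6.22 with androgen plus celastrol, 7.08 with androgen and 7.56 with vehicle. ENO2, the brightest neuroendocrine marker, had 7.64, 6.77 and 7.88 in the same order. All arrays are of 1 cell line, so the sums are marker RNA levels and no counts of cell types. On bulk arrays, fewer cells with a marker and less of its RNA per cell cannot be told apart.

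Androgen raised KLK2, KLK3 and AZGP1, and no member was called lower in that comparison. Of the 10 member probe sets, 6 were called up and none down. Over all probe sets 10.5% were called, 6.04% up and 4.47% down. These are 2333 probe sets, and 1552 without androgen replicate 2. The median change of the 10 was 2.03, against -0.04 over all probe sets. Arrays of the groups did not overlap for 8 of the 10, against 25.3% of all probe sets. With androgen plus celastrol against androgen, 6 of the 10 were called down, those of KLK2, KLK3 and ACP3, and none up. Of all probe sets, 12.6% were called there, 6.91% up and 5.66% down. These are 2792 probe sets, and 1844, 1750 and 1820 without androgen replicates 1, 2 and 3. The median change was -0.91, against 0.02 over all probe sets, and arrays did not overlap for 6 of the 10, against 32.3%. With androgen plus celastrol against vehicle, 6 were called up and 1, that of ACP3, down. Of all probe sets, 19% were called there, 11.1% up and 7.94% down, and the median change was 1.23, against -0.01. Arrays did not overlap there for 7 of the 10, against 33.5%. KLK2 holds 3 of the 10 probe sets and KLK3 2, so these medians lean on those genes. Taking for each of the 6 genes the probe set with the highest mean, the medians were 1.00, -0.62 and 0.50 in the 3 comparisons. Over all genes they were -0.04, 0.02 and -0.01. The first and second comparisons share the androgen arrays, which bear on both.

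**Figure D2:**
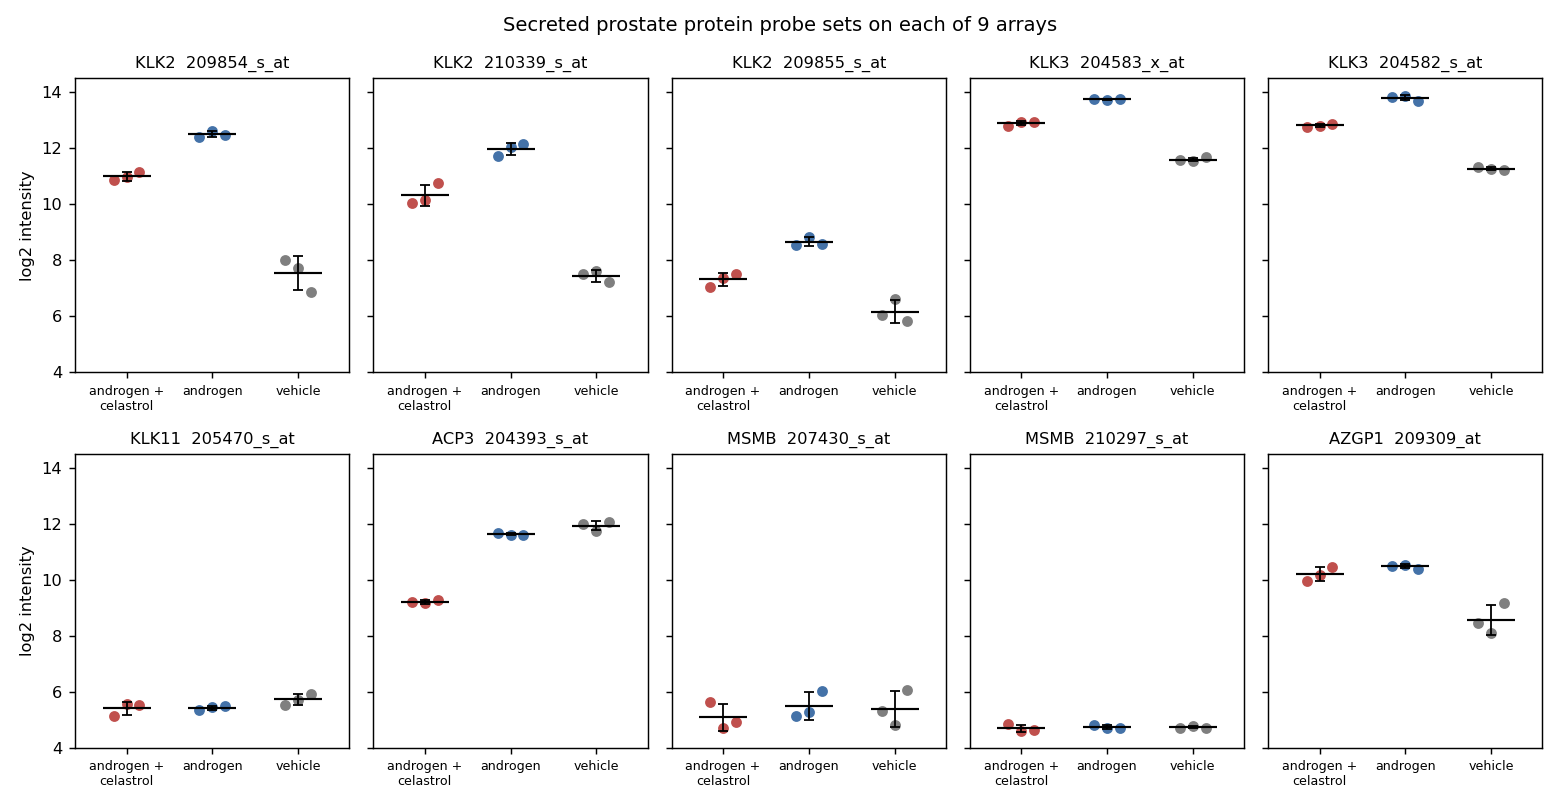
Log2 intensity of each member probe set (1 panel each) on the 9 arrays by group, with the 3 arrays as points, the mean as a line and the SD as error bars. KLK2 and KLK3 are highest with androgen, ACP3 is lowest with androgen plus celastrol, and MSMB and KLK11 stay low in the 3 groups.

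By leading probe set, KLK2 had the largest androgen change of the members, although its dimmest probe set changed less than 1 of the KLK3 probe sets. Its leading probe set 209854_s_at, the one with the highest mean, read 10.86, 10.97 and 11.17 on the androgen plus celastrol arrays, 12.42, 12.63 and 12.49 on the androgen arrays, and 8.01, 7.73 and 6.85 on the vehicle arrays. The 3 groups did not overlap, with androgen highest and vehicle lowest and most spread. As linear intensities the means were 2055 ± 221, 5856 ± 423 and 195 ± 72.9 with androgen plus celastrol, androgen and vehicle (SD, n = 3 each). Androgen gave a log2 change of 4.98 ± 0.26 (SE; 31.6-fold; limma adjusted p 5.28e-06), and 4.64 without vehicle replicate 3. With celastrol added the level was 1.51 ± 0.26 lower on the log2 scale than with androgen alone (2.86-fold lower; limma adjusted p 0.00497). It remained 3.47 ± 0.26 above vehicle (11.1-fold; limma adjusted p 3.08e-05).

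The other probe sets of KLK2 moved the same way. On 210339_s_at, values were 10.05, 10.16 and 10.75 with androgen plus celastrol, 11.74, 12.06 and 12.16 with androgen, and 7.51, 7.61 and 7.21 with vehicle. The dimmer 209855_s_at read 7.05, 7.37 and 7.50 with androgen plus celastrol, 8.55, 8.84 and 8.57 with androgen, and 6.04, 6.61 and 5.82 with vehicle. Neither shows overlap between groups. The androgen change was 4.55 ± 0.20 and 2.50 ± 0.21 on these probe sets, and the celastrol change -1.67 ± 0.20 and -1.34 ± 0.21, each called. KLK2 and KLK3 are closely related in sequence, so signal from one gene on the probes of the other was not tested.

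KLK3 was among the brightest probe sets on the arrays, at the 98.7th percentile of means. Probe set 204583_x_at read 12.81, 12.95 and 12.95 with androgen plus celastrol, 13.75, 13.72 and 13.78 with androgen, and 11.57, 11.56 and 11.68 with vehicle. The groups were clearly apart, and the arrays within each group close together. Androgen raised it by 2.15 ± 0.08 (4.43-fold; limma adjusted p 1.25e-06), and with celastrol added it was 0.85 ± 0.08 lower than with androgen (1.80-fold lower; limma adjusted p 0.000255). The second probe set, 204582_s_at, read 12.78, 12.81 and 12.89 with androgen plus celastrol, 13.84, 13.86 and 13.70 with androgen, and 11.35, 11.28 and 11.21 with vehicle. Its changes were 2.53 ± 0.08 for androgen against vehicle, -0.98 ± 0.08 for celastrol, and 1.55 ± 0.08 for the combination against vehicle. Saturation of these bright probe sets was not tested.

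AZGP1, whose protein resembles MHC class I molecules and is known for mobilising lipid, rose with androgen. Its probe set 209309_at read 9.96, 10.19 and 10.46 with androgen plus celastrol, 10.50, 10.55 and 10.41 with androgen, and 8.46, 8.09 and 9.17 with vehicle. The celastrol and androgen arrays overlap, and all 6 lie above the vehicle arrays. Androgen gave 1.91 ± 0.24 (3.76-fold; limma adjusted p 0.00102) and the combination 1.63 ± 0.24 against vehicle (limma adjusted p 0.00167). Between androgen plus celastrol and androgen the change was -0.29 ± 0.24, with a 95% interval of -0.84 to 0.27 (limma adjusted p 0.577), which does not show that the groups are alike.

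ACP3 was lower with celastrol than in both other groups, while its change with androgen alone was small and negative. Its probe set 204393_s_at read 9.22, 9.16 and 9.29 with androgen plus celastrol, 11.69, 11.61 and 11.61 with androgen, and 11.99, 11.75 and 12.06 with vehicle. The celastrol arrays lay far below both other groups. Means were 598 ± 27.4 with androgen plus celastrol, 3186 ± 92.6 with androgen and 3921 ± 427 with vehicle as linear intensities (SD, n = 3 each). The change was -2.41 ± 0.10 against androgen (5.33-fold lower; limma adjusted p 4.18e-06) and -2.71 ± 0.10 against vehicle (6.53-fold lower; limma adjusted p 9.62e-07). Androgen against vehicle gave -0.29 ± 0.10, with no overlap of the arrays and a 95% interval of -0.51 to -0.07, but missed the threshold (limma adjusted p 0.107). It passed with dim probe sets left out (0.0433), with a trended and robust variance (0.0316) and without vehicle replicate 2 (0.0359), each an adjusted p from limma.

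**Figure D3:**
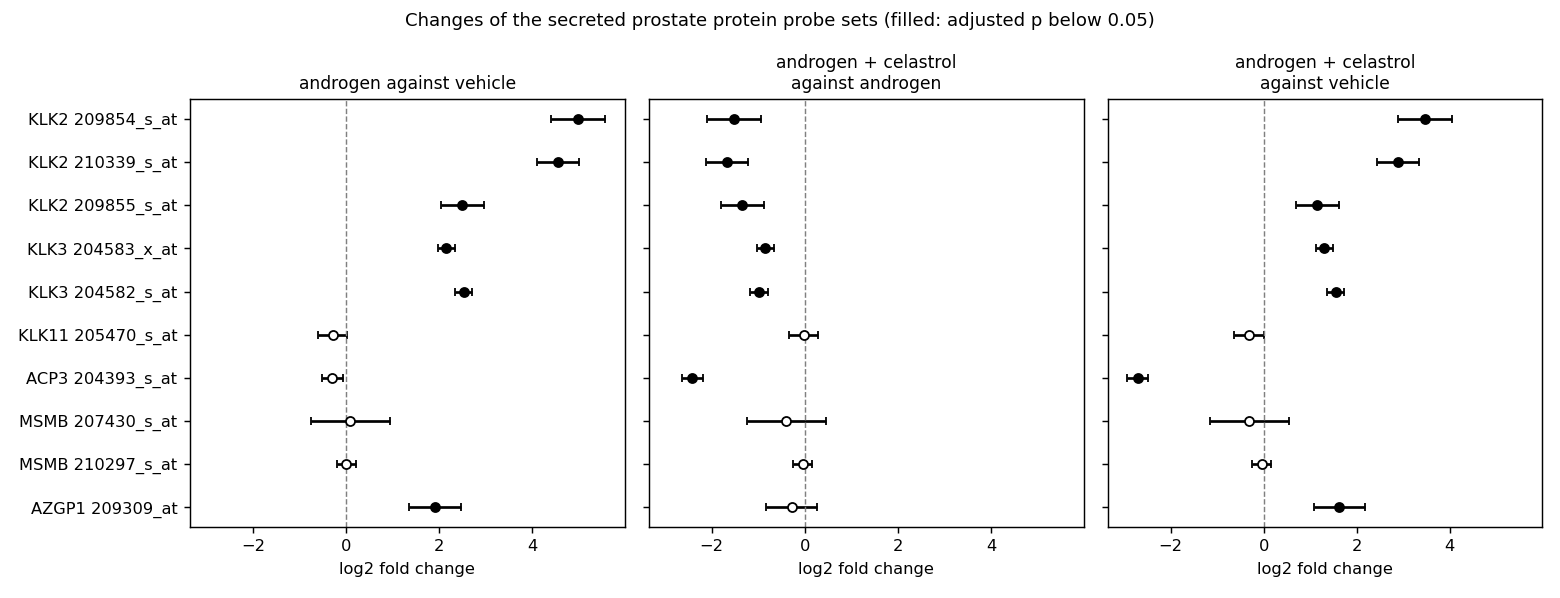
Log2 fold change of each member probe set in the 3 comparisons, with 95% intervals as bars; filled points have a limma adjusted p below 0.05. KLK2 probe sets rise by 2.50 to 4.98 with androgen, and ACP3 fell by 2.41 with celastrol added to androgen.

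KLK11 and MSMB were dim in every group and did not pass the test in any comparison. KLK11, a trypsin-like kallikrein, was at the 36.7th percentile and read 5.15, 5.56 and 5.53 with androgen plus celastrol, 5.36, 5.46 and 5.49 with androgen, and 5.53, 5.71 and 5.93 with vehicle. The androgen arrays were all below the vehicle arrays, and the difference of -0.29 ± 0.14 had a limma adjusted p of 0.297. Between androgen plus celastrol and androgen it was -0.02 ± 0.14. MSMB, a small cysteine-rich protein abundant in semen, read 5.64, 4.71 and 4.91 with androgen plus celastrol, 5.13, 5.29 and 6.05 with androgen, and 5.30, 4.81 and 6.07 with vehicle on 207430_s_at, and these groups overlap. Its other probe set was at percentile 4.33, with values of 4.61 to 4.85 over the 9 arrays. The sign of the MSMB differences against vehicle and of the KLK11 difference between androgen plus celastrol and androgen turned in some settings, while the KLK11 differences against vehicle kept theirs.

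Whether members differed from each other in response was compared in 15 pairs of leading probe sets per comparison by exact permutation of the within-array differences, a test added after the data were seen. In each of 2 comparisons, androgen against vehicle and androgen plus celastrol against androgen, 11 pairs had no overlap. The pairs reuse the same 6 genes, and the share among pairs of all genes was not computed, so the count is description only. An exact two-sided test of 3 against 3 cannot go below 0.1 (0.136 after adjustment over the 15), so none can pass, and no difference between members is shown by this test. As a description of these arrays, the celastrol change of KLK2 was 0.67 more negative than that of KLK3 and 1.23 more negative than that of AZGP1, and that of ACP3 was 2.13 more negative than that of AZGP1, for the leading probe sets alone.

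Among the genes of the related lists, few moved with the members. Of 12 other kallikreins, KLK4 and KLK9 had no probe set of their own, so their response is not known here. The 10 measured all lay below the 41.4th percentile, and 0 passed in any comparison by limma. At an unadjusted limma p below 0.05 there were 0, 1 and 0 in the androgen, celastrol and combined comparisons. KLK5 and KLK1, the brightest of them, had androgen changes of -0.14 ± 0.10 and 0.36 ± 0.20 and celastrol changes of 0.02 ± 0.10 and -0.09 ± 0.20. Over the leading probe sets of all genes, 12.1% were called for androgen (6.71% up, 5.35% down), 14.7% for celastrol (8.13% up, 6.6% down) and 21.9% for the combination (12.6% up, 9.3% down). Of 9 measured of 12 kallikrein inhibitors, 0 passed for androgen and for celastrol, with 1 each at an unadjusted p below 0.05, and A2M and SERPINA5 fell against vehicle with the combination, by 0.62 ± 0.16 and by 0.57 ± 0.17. These are plasma protease inhibitors at the 41.4th percentile or below here. The SERPINA5 call was lost in 10 of 18 settings (limma adjusted p up to 0.129), and without each of vehicle replicates 1, 2 and 3, androgen replicates 1, 2 and 3 and androgen plus celastrol replicates 1 and 3. That of A2M was lost in 3 (adjusted p up to 0.0768), without vehicle replicate 1 and without androgen plus celastrol replicate 1 among them. SERPINA3 and SERPINA1 had 0.18 ± 0.16 and -0.62 ± 0.38 in that comparison, neither called.

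Of 9 measured of 11 kallikrein substrates, 2 passed for androgen, where 12.1% of all genes were called (14.7% with celastrol, 21.9% with the combination). With androgen the laminin chain LAMC1 rose by 1.56 ± 0.12 (limma adjusted p 4.51e-05) and fibronectin FN1 fell by 1.31 ± 0.10 (limma adjusted p 3.54e-05). With celastrol only FN1 passed, at 0.83 ± 0.10 above androgen alone (limma adjusted p 0.000703), and LAMC1 was at -0.30 ± 0.12. Against vehicle the combination gave 1.26 ± 0.12 for LAMC1 and -0.48 ± 0.10 for FN1, both called. IGFBP3, the growth factor binding protein, had -0.27 ± 0.15 with androgen and -0.01 ± 0.15 with celastrol, and the protease PLAU 0.17 ± 0.20 with androgen, none called.

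Other secreted prostate proteins, 12 of 13 measured, included 1 riser with androgen, where 6.71% of all genes were called up and 5.35% down. The acid glycoprotein ORM1 rose by 3.41 ± 0.38 (limma adjusted p 0.000444), against a vehicle level of 5.41 ± 0.93 (SD, n = 3) on the log2 scale. Whether that level is above background was not tested, so the size of the rise is uncertain. SPON2 was at 0.03 ± 0.10 and NPC2 at -0.13 ± 0.09. With celastrol 2 rose and 2 fell, where 8.13% of all genes were called up and 6.6% down. The chaperone clusterin, CLU, rose by 1.83 ± 0.12 and the cholesterol carrier NPC2 by 0.85 ± 0.09. ORM1 fell by 1.72 ± 0.38 and the matrix protein SPON2 by 0.55 ± 0.10. The limma adjusted p of ORM1 was 0.0175 and was above 0.05 (0.0592 to 0.0733) without androgen replicate 1 or 2 and without androgen plus celastrol replicate 1 or 2. CST3 and PIP, with -0.08 ± 0.13 and 0.06 ± 0.16, did not pass. Against vehicle, 3 rose (ORM1 by 1.69, CLU by 1.56 and NPC2 by 0.72) and SPON2 fell by 0.52. Of all genes, 12.6% were called up there and 9.3% down. Without androgen plus celastrol replicate 3 the limma adjusted p of ORM1 was 0.0509.

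Of the other acid phosphatases, 3 of 6 were measured, and none fell with celastrol. Of all genes, 6.6% were called lower there and 8.13% higher. ACP1 and the lysosomal ACP2 rose by 0.38 ± 0.08 and by 0.38 ± 0.09, and ACP6 had 0.21 ± 0.10. The ACP2 call was lost in 6 of 19 settings (limma adjusted p 0.0555 to 0.0876), among them without each androgen replicate and without androgen plus celastrol replicates 2 and 3. With androgen none passed by limma, 2 having an unadjusted p below 0.05, and ACP1 and ACP2 had 0.21 ± 0.08 and 0.01 ± 0.09. Against vehicle ACP1 rose by 0.59 and ACP2 by 0.40, the ACP2 call being lost in 5 of 19 settings (adjusted p up to 0.0632), among them without vehicle replicate 1 and without androgen plus celastrol replicate 3.

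Transcription factors known to bind kallikrein enhancers were measured in 3 of 5 cases. By leading probe set none passed with androgen, where 2 had an unadjusted p below 0.05, or with celastrol, where 0 had. Of all genes, 12.1% were called with androgen, 14.7% with celastrol and 21.9% with the combination. A dimmer GATA2 probe set, 210358_x_at of 3, differed: with androgen it fell by 0.67 ± 0.11 (limma adjusted p 0.00377). With androgen 1 of the 3 genes was also called lower with quantile or cyclic loess normalization, with probe sets averaged and without vehicle replicate 3. HOXB13 had -0.42 ± 0.14 with androgen and 0.12 ± 0.14 with celastrol, and GATA2 -0.42 ± 0.16 and -0.20 ± 0.16. Against vehicle GATA2 fell by 0.62 ± 0.16 with the combination (limma adjusted p 0.0258), a call lost in 5 of 19 settings (adjusted p 0.0647 to 0.0785), among them without vehicle replicates 1 and 2 and without androgen plus celastrol replicates 1 and 2, while HOXB13 and FOXA1 had -0.30 ± 0.14 and -0.16 ± 0.09.

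**Figure D4:**
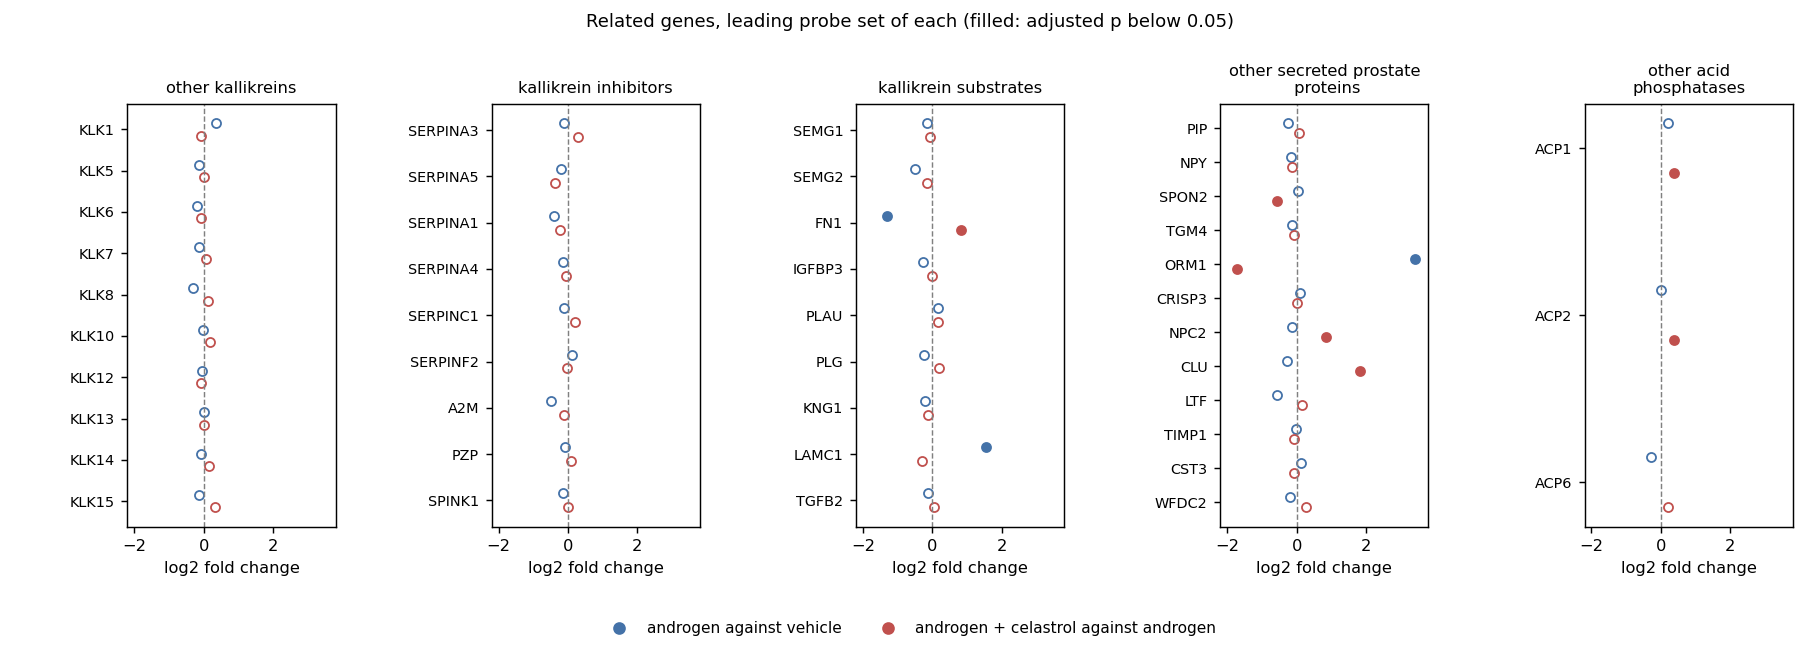
Log2 fold change of the leading probe set of each gene in 5 related lists, for androgen against vehicle (blue) and androgen plus celastrol against androgen (red); filled points have a limma adjusted p below 0.05. ORM1 rises by 3.41 with androgen, CLU rises by 1.83 with celastrol, and none of the other kallikreins measured is filled.

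The genes whose pattern over the 9 arrays was most like each member were ranked by Pearson r among 839 genes whose group means span at least 1 on the log2 scale. These are descriptions over 9 arrays that share their treatment groups. For KLK2 they were SNAI2 (0.999), PDIA5 (0.998) and SGK1 (0.997), for KLK3 ABCC4 (0.998), RAB27A (0.996) and SLC35F2 (0.996), and for AZGP1 CSGALNACT1 (0.984), ELL2 (0.978) and CTNNA2 (0.978). ACP3 had PCLAF (0.995), SRSF3 (0.992) and DDX39B (0.989). The dim members had lower values, 0.839, 0.814 and 0.798 for IRX5, HSPA4L and NFKB1 with KLK11, and 0.909, 0.797 and 0.786 for DMP1, AKAP5 and TRO with MSMB.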

How the data were processed

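Total RNA of 9 LNCaP cultures was hybridised as biotin-labelled cRNA, per the labels' protocols. The authors deposited linear intensities, 1 per probe set and array. Per the submitters' processing notes RMA was used; its version is not given in the sources used here. RMA is meant to bring arrays to a common scale, which would remove differences in total RNA. The deposited arrays still differed, with median intensities from 72.2 to 80.2. Log2 was taken with a pseudocount of 0. A single limma fit (version 3.58.1, R 4.3.3; lmFit, eBayes) held all 22215 probe sets and 9 arrays, and p-values were adjusted over all probe sets. For arrays, their number limits the precision; the median SE of a log2 change was 0.133. The fit was tested on simulated data.

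The annotation names 1 gene for 19724 probe sets, several for 568 and none for 1923. The members and lists were chosen with earlier results of these data known. Named genes followed 1 rule: per list and comparison, up to 4 that passed by size of change and up to 2 that did not by highest mean. The rule also took the 3 genes most alike to each member and, of marker lists, those called, 46 genes in all. CDH1, a luminal marker that was not called, is named outside this rule, and its values in other settings were not examined. Values of a named gene in a further comparison were added after they were seen. Listed genes without a probe set of their own were not analysed here, and protein sequences were not used here.

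Arrays with the same replicate number deviated together for androgen and vehicle (correlations 0.39, 0.37 and 0.63). For celastrol against androgen the correlations were -0.09, 0.22 and -0.16, and for the combination against vehicle -0.26, 0.12 and -0.27. The titles number biological replicates and do not say what arrays of 1 number share, so pairing was not settled. The replicate block, an alternative, changed no member call. Alternatives were 10 other settings and leaving out each of the 9 arrays. Exact permutation tests used scipy 1.17.1 and alignments Biopython 1.88.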

Additional observations from a re-analysis of the deposited data

How the results depend on the processing

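Every member call held in all settings that gave a value, and 3 settings added a call for ACP3 with androgen: of 537 member values, 524 kept direction and side of the threshold. With dim probe sets left out, KLK11 and MSMB had no value. With 1 probe set per gene, and with probe sets of a gene averaged, the members called numbered 3 for androgen, 3 for celastrol against androgen and 4 for the combination, since 6 genes then replace 10 probe sets. Averaging left 1497, 1845 and 2725 called genes in the 3 comparisons, from fewer features. Leaving out 1 array gave 6 to 7, 6 and 7 called members, and 1552 to 2631, 1750 to 3919 and 3326 to 4365 called probe sets. With the replicate block the members called were 6, 6 and 7, and all calls 2023, 2397 and 4074; of the named genes called, it ended the calls of KRT18 for celastrol, of COL3A1 for androgen and the combination, and of FOLH1 for the combination. With array medians subtracted the androgen calls were 1821 up and 738 down, against 1341 and 992.

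In 23 results, 45 settings turned the sign; none of these results passed the threshold in any setting, and the cause was not tested. Without 1 array, androgen changes ranged from -0.20 to 0.43 and from -0.026 to 0.030 for the 2 MSMB probe sets, from -0.66 to 0.15 for SERPINA1, from -0.029 to 0.34 for PLAU, from -0.0057 to 0.064 for SPON2, from -0.020 to 0.25 for CST3, from -0.037 to 0.078 for ACP2, from -1.03 to 0.16 for DMP1 and from -1.03 to 0.053 for TRO. Celastrol changes ranged from -0.097 to 0.11 for KLK11, from -0.042 to 0.071 for KLK5, from -0.25 to 0.0043 for KLK1, from -0.15 to 0.054 for IGFBP3, from -0.00032 to 0.36 for PLAU, from -0.049 to 0.13 for PIP, from -0.022 to 0.0092 for FOXA1, from -0.17 to 0.20 for IRX5 and from -0.10 to 0.16 for NFKB1. Changes of the combination against vehicle ranged from -0.60 to 0.035 and from -0.12 to 0.0017 for MSMB, from -0.10 to 0.17 for CST3, from -0.28 to 0.0043 for PIP and from -0.76 to 0.041 for AKAP5. With quantile normalization ACP2 had -0.060 for androgen and CST3 -0.069 for the combination, and with cyclic loess these were -0.032 and -0.037, while KLK5 had -0.0091 for celastrol. With array medians subtracted KLK5 had -0.0011 for celastrol and MSMB 210297_s_at 0.018 for the combination. With probe sets averaged PLAU had -0.043 for androgen and IGFBP3 0.025 for celastrol, and with a pseudocount of 16 NFKB1 had 0.00011 for celastrol. Of 2589 values of related genes, 2426 kept direction and side, 86 lost and 42 gained a call. These values and the list counts were added after seeing the data.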

Other observations

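Of 5 measured luminal markers, 2 rose, 1 fell and 2 were not called with androgen (median change -0.03, against -0.04 over the leading probe sets of all genes, of which 12.1% were called). HOXB13 (-0.42 ± 0.14) and CDH1 (-0.03 ± 0.07) were those not called. The keratins KRT8 and KRT18, filament proteins of luminal epithelium, rose with androgen by 1.64 ± 0.11 and by 1.18 ± 0.10 on their leading probe sets. FOLH1, prostate-specific membrane antigen, fell by 0.51 ± 0.07 (limma adjusted p 1.85e-05, 9.73e-05 and 0.00204, 3 arrays a group). Of the 2 KRT8 probe sets, 1 was called up with androgen and 1 down with celastrol. With androgen 3 of 4 FOLH1 probe sets were called down. With celastrol KRT8 fell by 0.64 ± 0.11 (limma adjusted p 0.00458) and KRT18 by 0.41 ± 0.10 (0.0289), and FOLH1 had 0.22 ± 0.07, not called. The KRT18 call was lost in 7 of 19 settings (adjusted p up to 0.104), among them with the replicate block and without each array of either group, and the KRT8 call with its probe sets averaged (adjusted p 0.639). Against vehicle with the combination, KRT8 rose by 1.00 ± 0.11, KRT18 by 0.77 ± 0.10, and FOLH1 fell by 0.29 ± 0.07. Their limma adjusted p were 0.000239, 0.000808 and 0.0228, where 21.9% of all genes were called. HOXB13 and CDH1 were not called there. The FOLH1 call was lost in 7 of 19 settings (limma adjusted p up to 0.281). Those without vehicle replicate 2 and without androgen plus celastrol replicates 2 and 3 were among them.

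Of the stromal markers, COL3A1 fell with androgen by 0.43 ± 0.10 (limma adjusted p 0.0224), a call lost in 8 of 18 settings. Against vehicle with the combination VIM fell by 1.33 ± 0.28 (limma adjusted p 0.00979). COL3A1 fell there by 0.35 ± 0.10 (limma adjusted p 0.0377), a call lost in 13 of 18. In both comparisons 1 of 4 COL3A1 probe sets was called. No basal or leukocyte marker was called in any of the 3 comparisons by limma. For celastrol, 1 leukocyte marker had an unadjusted limma p below 0.05. Of all genes, 12.1% were called with androgen, 14.7% with celastrol and 21.9% with the combination. The neuroendocrine marker ENO2 fell with androgen by 1.10 ± 0.27 (limma adjusted p 0.0302), a call lost in 8 of 19 settings. All of these losses include the settings without vehicle replicates 1 and 2 and without androgen replicates 2 and 3, that of ENO2 also those leaving out androgen replicate 1 or androgen plus celastrol replicate 2 or 3, and that of COL3A1 for the combination also without each androgen plus celastrol replicate.

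The annotation gives a further probe set to AZGP1 and its pseudogene AZGP1P1 together, so it was not counted as a member. It had log2 changes of 2.08 ± 0.15 for androgen against vehicle, -0.15 ± 0.15 for androgen plus celastrol against androgen and 1.93 ± 0.15 for the combination against vehicle.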
